A study of Mus musculus with 32 samples.

Results

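Thermogenic program genes of brown and beige fat were followed through 3 fat depots of Gpr146 knockout and wild-type mice. The set was given by name: Ucp1, Dio2, Prdm16, Ppargc1a, Elovl3, Nat8l, Ebf2, Kcnk3, Cpt1b and Fabp3. Of these 10 genes, 9 had a row among the 24646 named genes of each depot, and Cpt1b was not analysed here. GPR146 is an orphan G protein-coupled receptor, and the mice compared were males carrying either a constitutive Gpr146 deletion (KO) or wild-type alleles (WT). All mice were 20 weeks old, had eaten a high-fat diet (HFD) for 3 months and had been fasted overnight, so that no lean, fed or cold-exposed group entered. RNA of brown adipose tissue (BAT), inguinal white fat (iWAT), epididymal white fat (eWAT) and liver was read on Affymetrix mouse gene arrays, with 4 mice per genotype in each tissue and 1 array per mouse and tissue.

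Brown adipocytes burn fatty acids and release the energy as heat, because UCP1 lets protons return across the inner mitochondrial membrane without making ATP. Noradrenaline starts this through beta-adrenergic receptors and cyclic AMP, which raises transcription of Ucp1, of the coactivator gene Ppargc1a and of Dio2. Beige adipocytes are inducible cells of white depots, inguinal fat above all in the mouse, that take on the same program. Among the regulators, PRDM16 and EBF2 set brown and beige identity and PPARGC1A drives mitochondrial biogenesis. DIO2 converts thyroxine to the active hormone within the cell, ELOVL3 elongates very long chain fatty acids, NAT8L makes N-acetylaspartate in mitochondria, and FABP3 carries fatty acids in the cytosol. KCNK3 is a potassium channel enriched in thermogenic adipocytes.

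The cyclic AMP response element is bound by CREB and related factors, and its letters were searched in the 250 bases before the start site of each gene with an entry in the RefSeq promoter table (GRCm38.p6). Of the 10 genes, 5 had an entry: Ucp1, Dio2, Prdm16, Ppargc1a and Fabp3. Elovl3, Nat8l, Ebf2, Kcnk3 and Cpt1b had none. The 3 genes that cyclic AMP is best known to raise are shown here 5′ to 3′ on the gene's strand, with TGACG, or CGTCA where the same letters run on the other strand, in capitals. They lie at chr8:83290098-83290347 on the plus strand for Ucp1, at chr12:90739039-90739288 on the minus strand for Dio2 and at chr5:51567726-51567975 on the minus strand for Ppargc1a.
Ucp1: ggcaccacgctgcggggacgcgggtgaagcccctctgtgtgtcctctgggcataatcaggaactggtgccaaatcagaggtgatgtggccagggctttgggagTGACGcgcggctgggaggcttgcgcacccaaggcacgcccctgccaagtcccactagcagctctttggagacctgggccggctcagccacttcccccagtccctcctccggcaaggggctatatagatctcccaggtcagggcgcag
Dio2: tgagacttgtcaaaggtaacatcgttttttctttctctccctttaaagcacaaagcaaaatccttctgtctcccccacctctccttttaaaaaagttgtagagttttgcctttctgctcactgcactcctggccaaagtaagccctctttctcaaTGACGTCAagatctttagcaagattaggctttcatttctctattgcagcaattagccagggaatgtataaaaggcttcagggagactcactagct
Ppargc1a: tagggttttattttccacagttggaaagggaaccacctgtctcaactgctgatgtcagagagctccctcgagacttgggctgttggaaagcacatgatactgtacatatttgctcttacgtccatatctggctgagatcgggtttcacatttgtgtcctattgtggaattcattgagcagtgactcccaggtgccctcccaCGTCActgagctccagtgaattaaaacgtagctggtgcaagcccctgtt
In the Dio2 window both capital motifs overlap to give the whole palindrome TGACGTCA, whose first base lay 95 bases before the start. The whole palindrome was present in 1.55% of 32817 such windows. In the Ppargc1a window CGTCA began 49 bases before the start, and in the Ucp1 window TGACG began 147 bases before it. Of the windows not printed, Fabp3 held TGACG 149 bases before its start and Prdm16 held neither motif. One or the other of these short motifs occurred in 17.7% of all windows. A match to these letters is a description of the window and not evidence of binding.

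The targeted gene was first read in every fat depot. In BAT, Gpr146 measured 5.10, 5.42, 5.34 and 5.60 in the WT arrays and 3.82, 4.69, 4.05 and 4.27 in the KO arrays, on the deposited log2 scale. All KO arrays lay below all WT arrays in each of the 3 depots, and the log2 fold change was -1.16 in BAT, -1.53 in eWAT and -1.55 in iWAT. After adjustment over all genes (limma, Benjamini-Hochberg) this passed the threshold of 0.05 in eWAT (adjusted p = 0.00823) and not in BAT (0.0727) or iWAT (0.221). Which part of the transcript the probes cover relative to the deletion was not analysed here. Arrays of 1 depot correlated at between 0.939 and 0.995.

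Several arrays stood apart in genes of other cell types. The mean of 19 skeletal muscle genes was 6.18, 7.04 and 7.30 in BAT of WT 2, WT 3 and KO 2, against 3.05 to 3.64 in the other BAT arrays. The mean of 12 lymphocyte genes was 7.75, 7.86, 7.64 and 5.50 in iWAT of WT 1, WT 2, KO 2 and KO 4, against 3.47 to 3.64 in the others. In eWAT, 11 macrophage genes averaged 8.52 to 8.71 in WT and 5.81, 8.29, 6.74 and 6.08 in KO. The mean of 10 adipocyte genes in eWAT was 8.55 to 8.80 in WT and 9.03 to 9.43 in KO, so that the genotypes did not overlap. The same adipocyte mean overlapped between genotypes in BAT (9.14 to 9.40 over all arrays) and in iWAT (8.79 to 9.21 in WT, 8.98 to 9.48 in KO). In such bulk samples, fewer cells of a type and less RNA per cell cannot be told apart. The same holds for every gene below.

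**Figure D1:**
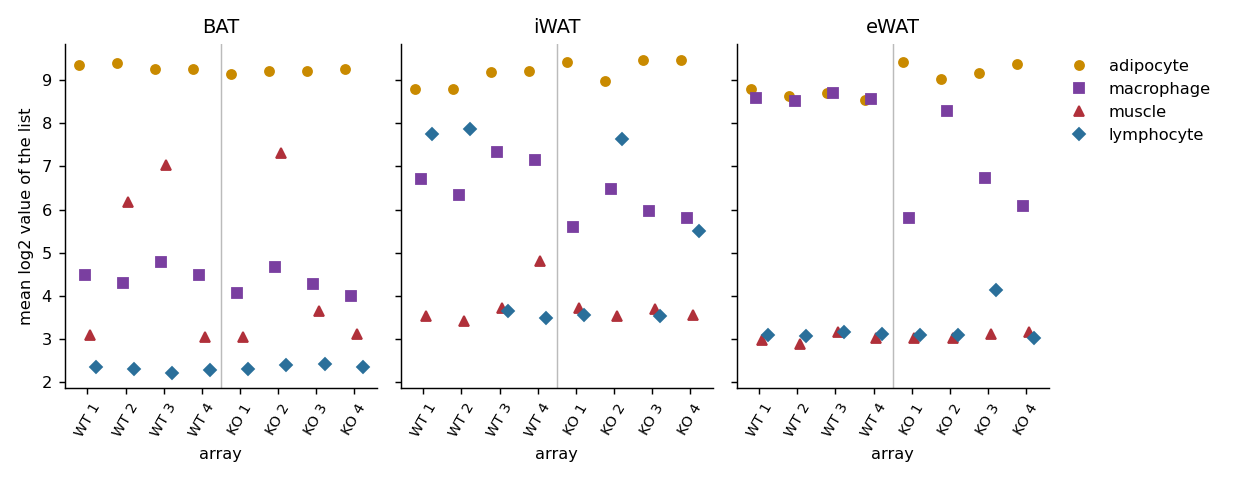
Mean log2 value (vertical axis) of the adipocyte, macrophage, skeletal muscle and lymphocyte marker lists in each fat array (horizontal axis), with a grey line between WT and KO arrays. Muscle genes were high in 3 BAT arrays, lymphocyte genes in 4 iWAT arrays, and in eWAT the macrophage list was lower and the adipocyte list higher in KO arrays.

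Before any genotype contrast, the level of each gene was placed among all genes of its own WT array as a percentile rank. This answers where the program was high before Gpr146 was lost. The depots were normalized apart, so these ranks are a description with no test. In all 9 genes, each of the 4 BAT ranks lay above each of the 4 eWAT ranks and above each of the 4 iWAT ranks. Over all genes, 28.3% lay so against eWAT and 24.5% against iWAT. As a check on the tissue labels, a list of 6 brown depot genes (Ucp1 among them) behaved the same way in 6 of 6, while of 8 white depot genes BAT lay below eWAT in 7 (24.9% of all genes) and below iWAT in 6 (22% of all genes). The other 2 white depot genes, Tcf21 and Wt1, ranked higher in every BAT array than in every iWAT array.

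Ucp1 held places 14 to 17 from the top of the 24646 genes in WT BAT, a rank of 99.93 to 99.94%. In WT iWAT it ranked at 66.0, 49.6, 65.8 and 50.3%, and in WT eWAT at 38.4, 47.9, 38.5 and 40.0%. The iWAT arrays formed a higher and a lower pair, and all 4 lay above the epididymal ones. In liver, which does not make heat through UCP1, Ucp1 ranked at 24.8 to 32.8%, below every WT fat array.

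The regulators were less depot-bound. Ppargc1a ranked at 92.8 to 97.8% in BAT, 63.0 to 70.8% in iWAT and 55.3 to 58.9% in eWAT. Liver, where this coactivator takes part in the fasting response, gave 69.7 to 72.8% and overlapped iWAT. Prdm16 ranked at 61.5 to 68.1% in BAT, 49.3 to 54.3% in iWAT and 43.5 to 45.0% in eWAT, with no overlap between neighbouring depots. Ebf2 ranked at 67.8 to 72.9% in BAT, and here eWAT (58.9 to 61.3%) lay above iWAT (53.2 to 57.1%). Ucp1, Prdm16 and Ppargc1a were thus the 3 of 9 genes in which every iWAT array ranked above every eWAT array, against 19.1% of all genes, and Ebf2 was the 1 gene with the opposite order. On the deposited scale WT Ebf2 overlapped between eWAT (3.90 to 4.12) and iWAT (3.91 to 4.16). WT Prdm16 overlapped there between BAT (3.68 to 4.20) and iWAT (3.64 to 3.95). Array medians differed by depot (2.82 to 2.86 in BAT, 3.13 to 3.18 in eWAT, 3.65 to 3.73 in iWAT). A rank thus also depends on the other genes of its array.

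Among the metabolic genes, Elovl3 had the largest gap in rank between brown and white fat of the 9 genes. It ranked at 93.9 to 97.8% in BAT and at 10.6 to 24.5% over the white arrays, with iWAT and eWAT overlapping. Its rank in liver, 94.8 to 97.4%, overlapped that in BAT, so a high level of Elovl3 does not mark brown fat in these tissues. Dio2 ranked at 56.1 to 75.8% in BAT, the widest spread of any of the genes there, and at 13.7 to 26.2% over the white arrays. Nat8l ranked at 88.6 to 90.2% in BAT, 70.0 to 78.7% in iWAT and 63.7 to 71.0% in eWAT, the last pair overlapping. Kcnk3 ranked at 97.0 to 97.5% in BAT and 62.6 to 82.8% over the white arrays. Fabp3, a fatty acid carrier of heart and muscle as well, was as narrowly separated as Prdm16 and Ebf2, at 69.1 to 71.0% in BAT against 56.2 to 61.5% over the white arrays, with liver between at 64.1 to 65.2%. Fabp3 in the muscle-rich BAT arrays WT 2, WT 3 and KO 2 (log2 values 4.38, 4.51 and 4.39) lay within the range of the other BAT arrays.

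**Figure D2:**
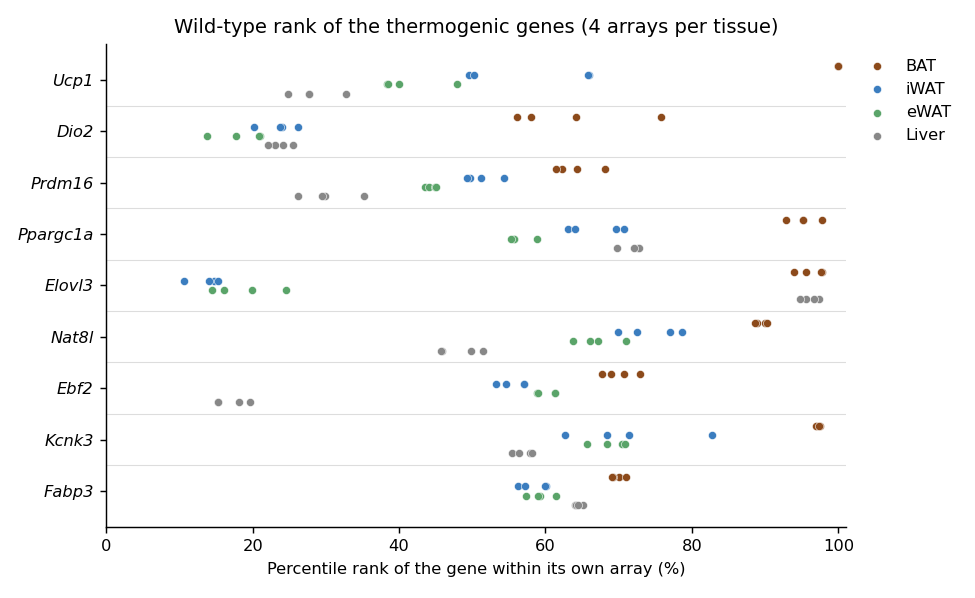
Percentile rank (horizontal axis, percent of the genes of the same array) of each of the 9 genes in the 4 wild-type arrays of BAT, iWAT, eWAT and liver, 1 point per array. In every gene the BAT points lie right of both white depots, and Elovl3 is as high in liver as in BAT.

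In the KO arrays the order brown over white held for 8 of the 9 genes, and the share of all genes in this order is not given here for KO arrays. The exception was Nat8l, which ranked at 84.1 to 86.7% in KO BAT, 81.5 to 93.3% in KO iWAT and 75.3 to 85.4% in KO eWAT, so that BAT overlapped both white depots.

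The first genotype comparison asked whether loss of Gpr146 altered the program in brown fat itself. In BAT, 8 of the 9 genes had a lower mean in KO, the largest differences being in Ppargc1a, Elovl3 and Dio2 with about a 2-fold lower level. Ucp1, near the top of the array scale, differed little in array value. None of the 9 passed the adjusted threshold in limma, in a depot where 7 of 24646 genes did (0.0284%). At an unadjusted p below 0.05, 4 of the 9 were lower in KO and none higher, where 12.7% of all genes passed in either direction. The methods' t-test, whose own share over all genes is not given here, gave 3 at the same unadjusted level and 0 after Benjamini-Hochberg adjustment. The median log2 fold change of the 9 was -0.22, against 0.00 over all genes.

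Ucp1, the uncoupling protein itself, measured 11.38, 11.59, 11.37 and 11.55 in WT BAT and 11.25, 11.36, 11.03 and 11.41 in KO BAT. The genotypes overlapped, KO 3 being the lowest array. The log2 fold change was -0.21 (95% interval -0.44 to 0.02, adjusted p = 0.448, limma). A difference in array value of more than 0.44 log2 units downward lay outside the interval. Since Ucp1 lay near the top of the array scale, this bound is on the array value and not on the transcript.

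Ppargc1a, the mitochondrial coactivator, measured 7.26, 8.22, 6.82 and 7.32 in WT BAT and 6.08, 6.02, 6.44 and 6.51 in KO BAT. Every KO array lay below every WT array, and WT 2 stood highest. The log2 fold change was -1.14 (SE 0.25), a 2.21-fold lower level in KO, with adjusted p = 0.130 (limma) and an exact two-sided permutation p of 0.0286, the smallest that 4 against 4 arrays can give. Nat8l, the N-acetylaspartate synthase, measured 6.20, 6.25, 6.40 and 6.43 in WT BAT and 5.89, 5.81, 5.64 and 5.92 in KO BAT. It was the other gene of the 9 without overlap, where 3.92% of all genes had every KO array below every WT array. Its log2 fold change was -0.50 (SE 0.09, adjusted p = 0.104), a 1.42-fold lower level.

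Elovl3, the fatty acid elongase, measured 7.38, 7.05, 8.16 and 8.08 in WT BAT and 6.32, 7.29, 5.76 and 6.75 in KO BAT. KO 2 lay among the WT arrays and the other 3 KO arrays below them, for a log2 fold change of -1.13 (SE 0.33, adjusted p = 0.195). Dio2, the deiodinase, measured 3.85, 4.96, 3.23 and 3.39 in WT BAT and 2.26, 2.73, 3.76 and 2.47 in KO BAT. KO 3 lay within the WT range, and the log2 fold change was -1.05 (SE 0.40, adjusted p = 0.302). The identity regulators Prdm16 and Ebf2 and the channel Kcnk3 overlapped between genotypes, with log2 fold changes of -0.22, -0.15 and -0.04. Fabp3 was the 1 gene with a higher KO mean, by 0.18 on the log2 scale. Adjusted p ranged from 0.519 to 0.902 over these 4 genes.

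Without the muscle-rich arrays, which left 2 WT and 3 KO mice, the difference was -0.50 in Nat8l (adjusted p = 0.636) and -0.94 in Ppargc1a (0.422). With the mean of the adipocyte genes as a covariate the difference in Ppargc1a was -0.46 (adjusted p = 0.838), and the part of the adipocyte genes was not tested further.

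Of 36 further brown and beige genes, none passed the adjusted threshold in BAT, while 9 were lower and 1 higher at an unadjusted p below 0.05, the level at which 1833 of all 24646 genes were lower and 1294 higher. The 4 with the smallest p were all lower in KO and did not overlap between genotypes. They were Slc36a2, an amino acid transporter that marks brown fat (log2 fold change -0.72, adjusted p = 0.0983), the glycerol kinase gene Gk (-1.58, 0.125), the beta-3 adrenergic receptor gene Adrb3 (-0.89, 0.130) and the mitochondrial carnitine-acylcarnitine carrier Slc25a20 (-0.38, 0.142). Over the 36 genes, 7 were lower without overlap, where 3.92% of all genes were so. Cox8b, of the brown depot list, was the 1 gene higher without overlap (0.16, adjusted p = 0.450), where 3.31% of all genes were so. The means of 17 of the 36 were higher in KO and those of 19 lower, with a median log2 fold change of -0.03.

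In eWAT the question was whether the program was higher in a white depot of the KO mice. At the adjusted threshold Nat8l was the 1 gene of the 9 that rose, about 2-fold, and no gene of the 9 fell. In this depot 15.2% of all genes passed the adjusted threshold and 4.57% did so upward, so that 1 of 9 lay near the background. Ucp1 stayed low in both genotypes. The median log2 fold change of the 9 was 0.17, against 0.03 over all genes.

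Nat8l measured 4.99, 4.58, 4.66 and 4.33 in WT eWAT and 6.15, 5.30, 5.35 and 6.14 in KO eWAT. Every KO array lay above every WT array, with KO 1 and KO 4 highest. The log2 fold change was 1.09 (SE 0.23, adjusted p = 0.0153, limma), a 2.13-fold higher level, and without WT 2 the adjusted p was 0.0507. KO 1 and KO 4 were also the arrays with the highest adipocyte means (9.43 and 9.38) and the lowest macrophage means (5.81 and 6.08). In KO 2, whose macrophage mean of 8.29 was close to the WT arrays, Nat8l was the lowest of the KO arrays.

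Ucp1 measured 2.52, 2.99, 2.56 and 2.60 in WT eWAT and 2.35, 2.57, 2.71 and 2.50 in KO eWAT. The genotypes overlapped almost wholly, and the log2 fold change was -0.13 (95% interval -0.41 to 0.14, adjusted p = 0.501). All these values lay below the median level of the array (3.13 to 3.18 over the eWAT arrays), where an array tells expression poorly from background. Dio2, Prdm16 and Elovl3 lay below that median as well, so that 5 of the 9 genes passed a filter on dim genes.

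Ppargc1a measured 3.61, 3.60, 3.91 and 3.57 in WT eWAT and 4.68, 3.78, 3.69 and 5.30 in KO eWAT. KO 1 and KO 4 lay above the WT range and KO 2 and KO 3 within it, and the log2 fold change was 0.69 (SE 0.32, adjusted p = 0.183). It was 0.38 without KO 4, 0.10 relative to the adipocyte genes of the same array, -0.21 with the macrophage mean as a covariate and -0.91 with the adipocyte mean, none of them past the threshold. The brown identity regulators Ebf2 and Prdm16 did not overlap between genotypes and were higher in KO, by 0.28 (adjusted p = 0.0971) and 0.19 (0.115) log2 units. Relative to the adipocyte genes of the same array they were lower by -0.30 and -0.40, where the median of all genes was -0.55. Elovl3 did not overlap and was lower in KO by -0.22 log2 units (adjusted p = 0.105). In all, 4 of the 9 genes did not overlap between genotypes, against 21.6% of all genes. Kcnk3 was lower by -0.27 log2 units (adjusted p = 0.120), and its KO arrays, at 4.51 to 4.55, were much closer together than its WT arrays at 4.51 to 4.99. Dio2 and Fabp3 overlapped, with log2 fold changes of 0.17 and 0.12.

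The call on Nat8l was lost with some marker lists in the fit. With the macrophage mean as a covariate the difference was 0.43 (adjusted p = 0.678), and with the adipocyte mean, which itself does not overlap between genotypes, it was -0.35 (0.871). Taken relative to the adipocyte mean of each array, which was 0.58 log2 units higher in KO and moved the median of all genes to -0.55, Nat8l was higher by 0.51 (adjusted p = 0.0108). In this scaling most of all genes passed the threshold, so passing it says little about Nat8l itself.

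Of the 36 further genes, 4 rose and 3 fell in eWAT at the adjusted threshold, where 4.57% of all genes rose and 10.7% fell. Those that rose were Adrb3 (log2 fold change 2.24, adjusted p = 0.00823), the muscle and brown fat uncoupling protein homologue Ucp3 (1.14, 0.00924), the beige marker Cited1 (0.32, 0.0175) and Ppara, a nuclear receptor for fatty acid oxidation (0.49, 0.0205). Those that fell were Ucp2 (-1.24, 0.0136), an uncoupling protein homologue also expressed by macrophages, the pyruvate dehydrogenase kinase gene Pdk4 (-1.17, 0.0316) and Gk (-0.85, 0.0246). Adrb3 measured 6.58, 5.58, 6.10 and 6.07 in WT eWAT and 8.72, 7.32, 8.45 and 8.79 in KO eWAT, a 4.71-fold higher level with no overlap. Beside this, 9 of the 10 adipocyte genes rose (list median 0.56) and 10 of the 11 macrophage genes fell (list median -2.26), and the part of these shifts in each gene's difference was not tested further.

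In iWAT, the depot best known for beige cells, no gene passed the adjusted threshold, among the 9 genes or among all (0%). The means of 8 of the 9 genes were higher in KO and that of Ucp1 was lower. Relative to the adipocyte genes, whose mean was 0.34 log2 units higher in KO, only Nat8l (0.76) and Ppargc1a (0.27) stayed above 0. That scaling lowers every gene and moved the median of all genes to -0.33. The mean of the macrophage genes was 6.35 to 7.32 in WT iWAT and 5.59 to 6.47 in KO iWAT, and 7 of these 11 genes were lower at an unadjusted p below 0.05. At an unadjusted p below 0.05, 3 of the 9 were higher (Nat8l, Ppargc1a and Prdm16) and none lower, where 15.4% of all genes passed in either direction. The methods' t-test, whose own share over all genes is not given here, gave 1 gene at that unadjusted level and 0 after adjustment. The median log2 fold change of the 9 was 0.21, against 0.02 over all genes.

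Nat8l measured 5.35, 5.20, 5.61 and 5.84 in WT iWAT and 6.75, 5.99, 7.06 and 6.60 in KO iWAT. Every KO array lay above every WT array, KO 2 by the least, where 4.29% of all genes had every KO array above every WT array. The log2 fold change was 1.10 (SE 0.23), a 2.15-fold higher level, with adjusted p = 0.221 (limma) and an exact permutation p of 0.0286. Without the 4 lymphocyte-rich arrays, which left 2 mice per genotype, it was 1.18 (adjusted p = 0.0221), and with the lymphocyte mean as a covariate it was 1.01 (0.0391). Without KO 2 alone it was 1.31 (adjusted p = 0.0398). Other settings gave no call, with 0.61 (adjusted p = 0.162) with the adipocyte mean and 1.07 (1.00) with the macrophage mean as a covariate.

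Ucp1 measured 4.90, 3.66, 4.80 and 3.67 in WT iWAT and 4.02, 3.10, 3.93 and 3.71 in KO iWAT. WT 1 and WT 3 lay above every KO array, and WT 2 and WT 4 within the KO range. The log2 fold change was -0.56 with a wide interval of -1.32 to 0.19 (adjusted p = 0.420), which held differences of either sign. Ppargc1a measured 5.15, 4.69, 5.16 and 4.70 in WT iWAT and 5.06, 5.25, 5.90 and 5.92 in KO iWAT. KO 1 lay within the WT range, and the log2 fold change was 0.61 (adjusted p = 0.268). The 2 WT arrays with more Ucp1, WT 1 and WT 3, were also the 2 with more Ppargc1a, while among KO arrays KO 4 had the most Ppargc1a and not the most Ucp1.

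Prdm16 measured 3.68, 3.64, 3.76 and 3.95 in WT iWAT and 4.11, 3.74, 4.26 and 4.28 in KO iWAT, for a log2 fold change of 0.34 (adjusted p = 0.302). KO 2, one of the lymphocyte-rich arrays, lay within the WT range and the other KO arrays above it. Ebf2, Fabp3, Kcnk3, Elovl3 and Dio2 overlapped between genotypes, with log2 fold changes of 0.13 to 0.23. Dio2 and Elovl3 lay below the median level of the array there (3.65 to 3.73), near background. Ucp1 was close to that median in WT 2, WT 4 and KO 4 (ranks 49.58, 50.28 and 50.35%) and below it in KO 2 (39.7%). Prdm16 in the WT arrays was close to it as well (49.3 to 54.3%). Kcnk3 in WT iWAT spread from 4.65 to 6.19, and its highest array, WT 4, also had the highest muscle mean of the depot (4.82).

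Of the 36 further genes, none passed the adjusted threshold in iWAT, and 12 were higher and 1 lower at an unadjusted p below 0.05, the level at which 1748 of all genes were higher and 2055 lower. The 4 with the smallest p, each with adjusted p = 0.221, did not overlap and were higher in KO. Cox8b, a cytochrome oxidase subunit of brown fat and muscle, measured 5.34, 3.61, 5.30 and 4.64 in WT iWAT and 7.21, 6.28, 7.71 and 7.75 in KO iWAT, for a log2 fold change of 2.51. The others were Adrb3 (1.66), the mitochondrial dehydrogenase gene Acadl (0.60) and Zfp516 (0.36), a zinc finger factor that acts on the Ucp1 promoter. Thus Cox8b was higher by 2.51 in a depot in which the mean of Ucp1 was lower by -0.56 log2 units, neither past the adjusted threshold.

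**Figure D3:**
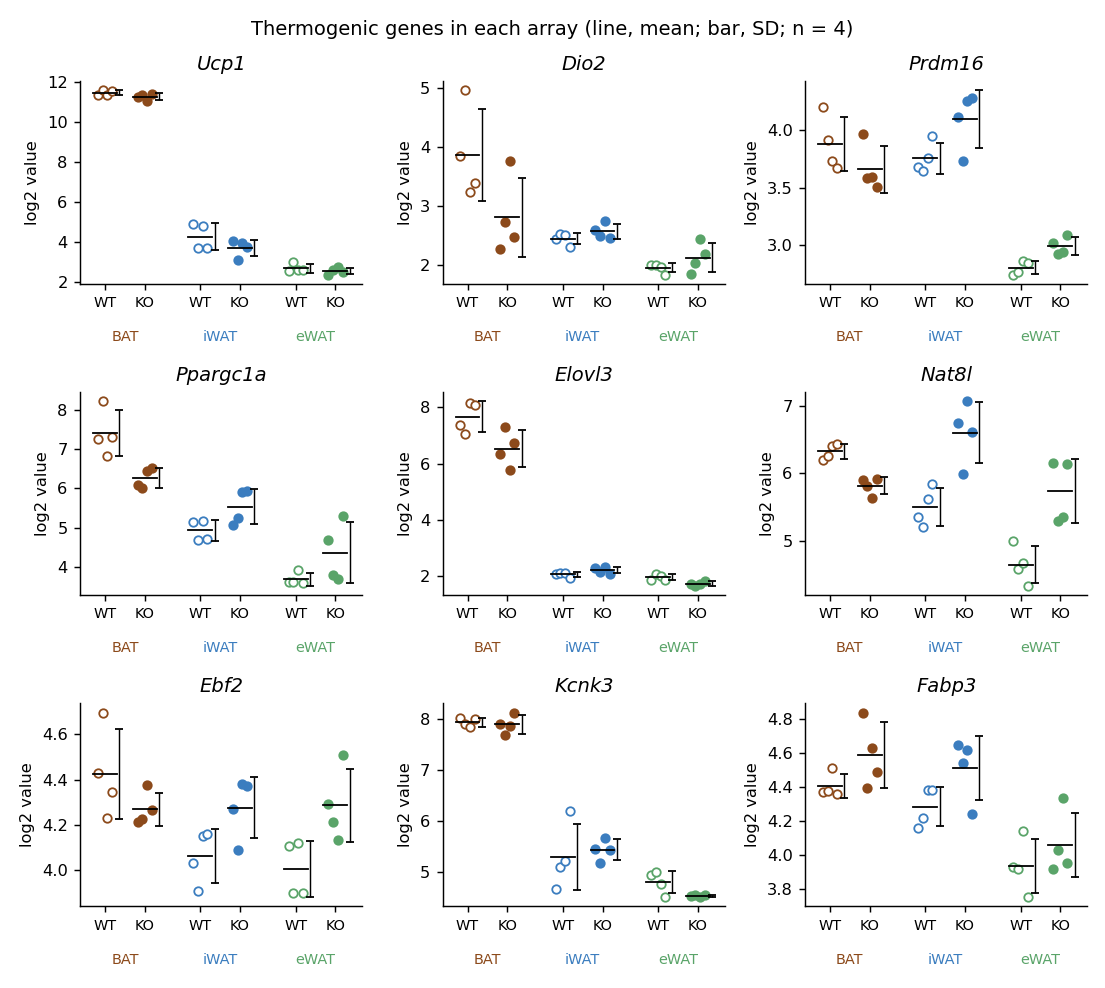
Deposited log2 value of each of the 9 genes in every fat array, with open points for WT and filled points for KO, a line at the mean of 4 arrays and a bar for the SD. Each panel has its own vertical range, which does not start at 0, and depots were normalized apart. Nat8l is lower in KO BAT and higher in KO iWAT and eWAT with no overlap, and Ppargc1a is lower in KO BAT with no overlap.

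**Figure D4:**
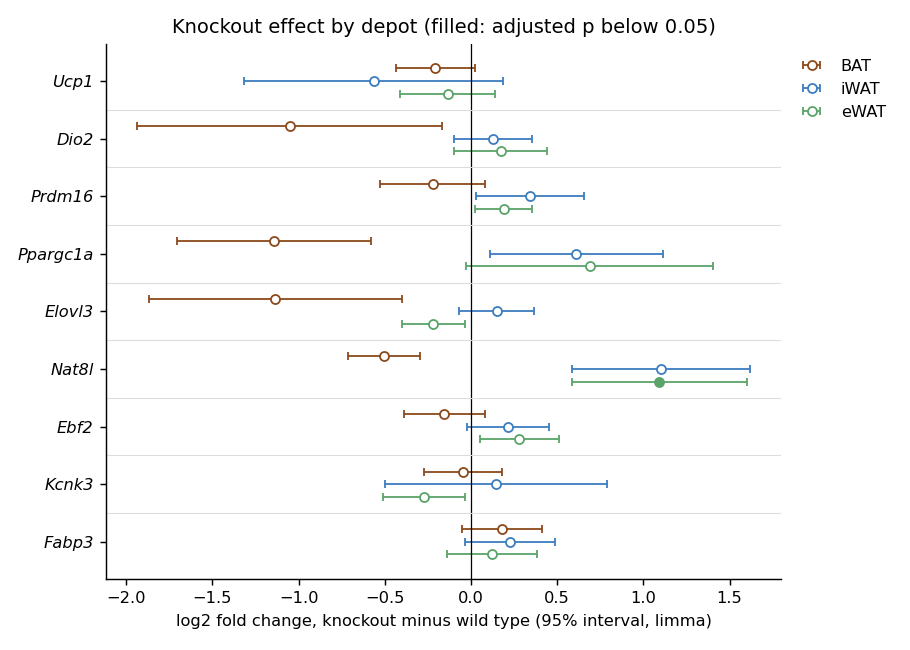
Log2 fold change of KO over WT (horizontal axis) with its 95% interval from limma for each of the 9 genes in BAT, iWAT and eWAT. Nat8l in eWAT (1.09) is the 1 filled point, an adjusted p below 0.05, and before adjustment the BAT intervals of Ppargc1a, Nat8l, Elovl3 and Dio2 and the eWAT intervals of Elovl3 and Kcnk3 lie left of 0.

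The last comparison tested directly whether the genotype difference depended on the depot. For each mouse the log2 value in one depot was subtracted from that in the other, mice being joined by the number in the labels, and KO was then compared with WT. The KO effect differed between eWAT and BAT in 2 of the 9 genes, Nat8l and Ppargc1a, where 6.93% of all genes passed. In the values as deposited, both genes had a lower KO mean in BAT and a higher one in eWAT.

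In Nat8l the effect was 1.60 log2 units higher in eWAT than in BAT (95% interval 1.11 to 2.09, adjusted p = 0.00825, limma). In Ppargc1a it was 1.83 units higher (0.97 to 2.69, adjusted p = 0.0213), and leaving out 1 of 5 mice (WT 1, WT 2, WT 4, KO 1 or KO 4) ended the call, at adjusted p = 0.0516 to 0.0676. Relative to the adipocyte genes of each array the differences were smaller, 0.90 in Nat8l (adjusted p = 0.00166) and 1.14 in Ppargc1a (0.00497). This scaling lowers the difference of every gene, because the KO minus WT shift of the list was 0.58 in eWAT and -0.11 in BAT. The share of all genes that passed in this scaling is not given here. In both genes every KO mouse lay above every WT mouse in the difference between depots, where 13.1% of all genes did not overlap in either direction. Dio2 (1.23, adjusted p = 0.0582), Elovl3 (0.92, 0.160), Ebf2 (0.44, 0.160) and Prdm16 (0.41, 0.197) had the same sign without passing, a sign that turned for Ebf2 and Prdm16 (-0.26 and -0.28) relative to the adipocyte genes. In Ucp1 the effects differed by 0.07 (95% interval -0.27 to 0.42, adjusted p = 0.867). Relative to the adipocyte genes the value was -0.62 (adjusted p = 0.0159), in the scaling that lowers every gene. That value is thus not read as a depot difference of Ucp1 itself. In eWAT, Ucp1, Dio2, Elovl3 and Prdm16 lay below the array median, so their differences set a BAT change against values near background. Ucp1 in BAT was near the top of the array scale. In Elovl3 the KO mean was lower in both depots.

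Between iWAT and BAT no gene passed, of the 9 or of all 24646 (0%). An unadjusted p below 0.05 was found in 5 of the 9. The share of all genes at that level was not counted, so no excess among the 9 can be read from it. The sizes in Nat8l (1.61, adjusted p = 0.152) and Ppargc1a (1.75, 0.210) were like those for eWAT, and both genes again did not overlap (5.12% of all genes in either direction). Between the white depots no gene passed either, and Elovl3 (-0.37, adjusted p = 0.305), dim in both, was the 1 gene of the 9 with an unadjusted p below 0.05. The share of all genes at that level was not counted here either. The difference in Nat8l between eWAT and iWAT was -0.01 (95% interval -0.71 to 0.69).

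Of the 36 further genes, 6 passed in the difference between eWAT and BAT, where 6.93% of all genes passed. Adrb3 (3.13, adjusted p = 0.00825), Ucp3 (1.05, 0.0294), the carnitine palmitoyltransferase gene Cpt2 (0.90, 0.0163), the coactivator gene Ppargc1b (0.72, 0.0262) and Ppara (0.58, 0.0493) had the higher KO effect in eWAT. Ucp2 (-0.90, adjusted p = 0.0312) had the lower one. Nat8l, Ppargc1a, Adrb3, Cpt2, Ppargc1b and Ppara had higher KO means in eWAT and lower KO means in BAT in the values as deposited.

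**Figure D5:**
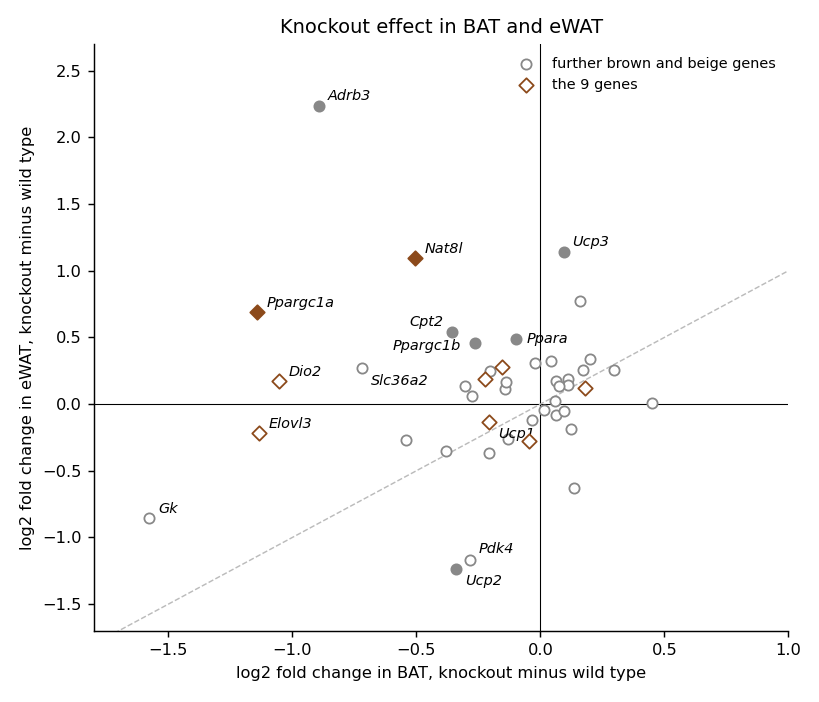
Log2 fold change of KO over WT in BAT (horizontal axis) and in eWAT (vertical axis) for the 9 genes (diamonds) and 36 further brown and beige genes (circles), with a dashed line where both are equal. Filled symbols passed the test of the difference between depots at an adjusted p below 0.05, and Nat8l, Ppargc1a and Adrb3 lie in the upper left, with higher KO means in eWAT and lower ones in BAT in the values as deposited (Ppargc1a in eWAT turned sign with the adipocyte or macrophage mean as a covariate).

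Finally, genes whose level followed that of Ucp1 from mouse to mouse were named by the mean over the 3 depots of Pearson's r across the 8 arrays of a depot, after each genotype's mean was taken off. Over these 24 arrays the nearest were Naaladl1 (mean r 0.84), Slc12a1 (0.79), 1700010I14Rik (0.75) and 5730416F02Rik (0.73). The nearest of the other 8 genes was Elovl3, with a mean r of 0.47 at place 424 among all genes. In Ppargc1a the correlation with Ucp1 was 0.36 in BAT and 0.52 in iWAT and -0.43 in eWAT, and in Nat8l 0.58, 0.36 and -0.52, so that eWAT stood apart in both. In eWAT Ucp1 lay below the array median, and arrays of different depots come from the same mice, so these values are given as a description.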

How the data were processed

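RNA of BAT, iWAT, eWAT and liver from 4 KO and 4 WT mice was hybridised as biotin-labelled cRNA, made from 100 ng of total RNA, to Affymetrix Mouse Gene 2.1 ST arrays. The authors deposited 1 table per tissue with log2 values per gene symbol. The summarisation and normalization behind them are not given in the sources used here, and the log base follows from the range of the values. Rows whose name was blank or altered by a spreadsheet were left out (1 or 2 per table), and 24646 genes remained. Rows of 840 symbols, among them Dio2, Prdm16, Ebf2 and Fabp3, average several probe sets, and Gk was read under its older symbol Gyk. Arrays have no read depth, and 4 per group limit the precision. Each depot was fitted alone with limma 3.58.1 in R 4.3.3, KO against WT, with Benjamini-Hochberg adjustment over all genes and a threshold of 0.05. Single values were also compared by an exact two-sided permutation test over 70 relabelings (smallest p 0.0286). Difference between depots was fitted with limma on differences per mouse. The p-values measure the spread between these mice. Within a depot, KO and WT arrays of equal number did not pair (r between -0.38 and 0.67). Between depots a number marks the same mouse per the labels, although the arrays correlated only weakly by number (r between -0.02 and 0.30, and 9 of 24 closer to another number). Code was tested on simulated data. Genes named are the 10 of the set, Gpr146, further genes past the threshold or with the 4 smallest p in a depot, and the 5 nearest to Ucp1, of which 1 is not reported here. The members and lists were chosen with earlier results of these data known. Alternatives covered normalization, array weights, the prior, dim genes, a replicate block, the methods' t-test, marker covariates and leaving out each mouse. Ranks used Python 3.11.15 and pandas 2.3.3.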

Additional observations from a re-analysis of the deposited data

Results flagged for a closer look

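Over 60 groups of 4 arrays examined for 1 array far from the others, 2 were marked, where chance marks about 1 in 20 groups. They were Fabp3 in BAT of WT replicate 3, at 4.51 on the log2 scale, and Ppargc1a in eWAT of WT replicate 3, at 3.91. The BAT array of WT replicate 3 was one of those with high muscle genes (mean 7.04).

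The KO effect differed between eWAT and BAT, by the test of the difference itself (limma on differences per mouse), in Ppargc1a (1.83 log2 units), Nat8l (1.60), Adrb3 (3.13), Ucp3 (1.05), Cpt2 (0.90), Ppargc1b (0.72), Ppara (0.58) and Ucp2 (-0.90). In Nat8l every KO array was lower than every WT array in BAT and higher in iWAT. The size of that difference was 1.61 log2 units, and it did not pass the adjusted threshold (adjusted p = 0.152).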

How the results depend on the processing

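Marker composition and the number of mice set the limits of these comparisons, and dim genes in eWAT (Ucp1, Dio2, Prdm16, Elovl3) and iWAT (Dio2, Elovl3) can be read there only near background. In BAT, 0 of the 9 genes passed under every alternative but the methods' t-test without adjustment, which gave 3. For BAT and iWAT the share of all genes with that unadjusted t-test is not given here. Over all genes the BAT count went from 7 to 0 under quantile normalization, equal array medians, the replicate block and each marker covariate, and to 80 without WT replicate 1. In eWAT, 1 of the 9 passed (Nat8l), against 3 with quantile normalization, 3 with array weights, 5 with the methods' t-test unadjusted and 0 with it adjusted. The count was 0 with the muscle (Nat8l 1.07, adjusted p = 0.0576), adipocyte or macrophage list as a covariate and 8 relative to the adipocyte list. Leaving out 1 replicate gave 0 to 2, the 0 being without WT replicate 2 (Nat8l 1.07, adjusted p = 0.0507). Over all genes the eWAT count of 3758 became 5295 with array weights, 1131 with the muscle, 0 with the adipocyte and 1 with the macrophage covariate, 6798 and 38 with the methods' t-test unadjusted and adjusted, 21490 relative to the adipocyte list, and 1448 without WT replicate 2. In iWAT the count of 0 became 1 with the methods' t-test unadjusted, 1 with the lymphocyte covariate and 1 without the lymphocyte-rich arrays, and over all genes 92 with that covariate and 916 without those arrays. Leaving out 1 replicate gave 0 to 1, the 1 being without KO replicate 2 (Nat8l 1.31, adjusted p = 0.0398). Replicate numbers did not pair the genotypes, and with the replicate block the counts were 0 in BAT, 1 in eWAT and 0 in iWAT. For eWAT minus BAT, 2 passed, 2 with no replicate block, 5 relative to the adipocyte list, and 1 to 3 when 1 replicate was left out. Over all genes 1707 passed, against 593 without WT replicate 2 and 2526 without KO replicate 2. The count over all genes relative to the adipocyte list is not given here for this difference, so the 5 cannot be set against it. For iWAT minus BAT, leaving out 1 replicate gave 0 to 1, the 1 without KO replicate 2 (Nat8l 1.81, adjusted p = 0.0344). For eWAT minus iWAT the count was 0 throughout. With the adipocyte covariate signs turned in BAT for Ebf2 (0.065) and Kcnk3 (0.036), in eWAT for Nat8l (-0.35, adjusted p = 0.871), Ppargc1a (-0.91), Ebf2 (-0.11) and Ucp1 (0.24) and in iWAT for Kcnk3 (-0.34), and with the macrophage covariate in eWAT for Ppargc1a (-0.21). Relative to the adipocyte list they turned in BAT for Kcnk3 (0.066), in eWAT for Dio2 (-0.41), Prdm16 (-0.40), Ebf2 (-0.30) and Fabp3 (-0.46), all 4 then past the threshold, and in iWAT for Dio2 (-0.21), Prdm16 (-0.0028), Elovl3 (-0.19), Ebf2 (-0.13), Kcnk3 (-0.20) and Fabp3 (-0.12). In the same scaling they turned in eWAT minus BAT for Ucp1 (-0.62, adjusted p = 0.0159), Prdm16 (-0.28) and Ebf2 (-0.26), in iWAT minus BAT for Ebf2 (-0.085), Kcnk3 (-0.26) and Fabp3 (-0.41), and in eWAT minus iWAT for Dio2 (-0.20), Ppargc1a (-0.16) and Ebf2 (-0.17). Ppargc1a also turned in eWAT minus iWAT with quantile normalization (-0.12), and Kcnk3 in iWAT without the lymphocyte-rich arrays (-0.14). Leaving out 1 replicate turned signs of uncalled values, over ranges of -0.12 to 0.023 for Kcnk3 in BAT, -0.065 to 0.45 for Kcnk3 in iWAT, -0.064 to 0.14 for Ucp1 and -0.14 to 0.072 for Fabp3 in eWAT minus BAT, -0.049 to 0.47 for Kcnk3 and -0.030 to 0.10 for Fabp3 in iWAT minus BAT, and in eWAT minus iWAT -0.0089 to 0.14 for Dio2, -0.19 to 0.42 for Ppargc1a, -0.23 to 0.27 for Nat8l and -0.00099 to 0.15 for Ebf2. This scaling lowers every gene by the shift of the list (0.58 in eWAT), and for the other changes the cause was not tested. The macrophage covariate, the arrays left out by marker genes and the scaling to the adipocyte list were chosen after seeing the data.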
